A study of Homo sapiens with 6 samples.

Results

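Type I keratins are the acidic chains of the keratin intermediate filaments. The genes considered here were chosen by symbol: KRT10, KRT13, KRT14, KRT15, KRT16, KRT17, KRT19 and KRT23. Of these 8 names, 7 had a row among the 18678 genes of the expression table, and KRT23 was not analysed here. KRT18, the type I keratin of simple epithelia that pairs with KRT8, was not analysed here either. Polyadenylated RNA was sequenced from Cal27, a human line established from a tongue squamous carcinoma, and from Cal27-shGRK2, cells of that line with a hairpin construct directed at GRK2, a kinase of activated G protein-coupled receptors. Both were grown in DMEM with fetal bovine serum. The labels name no other treatment, and they say neither whether Cal27 carried a control vector nor how many hairpins or clones were used.

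The labels give 3 libraries of each group, numbered 0, 1 and 2, but in Cal27-shGRK2 the columns of replicates 0 and 1 were the same number for each of the 18678 genes. These identical columns entered as 1 sample, called the duplicated library from here on. The comparison is therefore of 3 Cal27 with 2 Cal27-shGRK2 libraries. No label says that they came from separate cultures, and the p-values thus measure only how far these samples spread, which may be technical. Values are FPKM, fragments scaled by transcript length and library size, which allow levels to be compared between genes. The FPKM summed to between 590163 and 644832 per library, and sequencing depth could not be recovered from them. GRK2 (listed as ADRBK1) was at 55.3, 59.4 and 55.8 FPKM in Cal27 and at 17.3 and 16.6 FPKM in Cal27-shGRK2, a log2 fold change of -1.69 ± 0.06 (SE, n = 3 and 2, limma adjusted p = 3.8e-11). For GRK2 alone, an exact two-sided permutation test gave p = 0.1, the smallest that 5 libraries allow. Of 14 squamous cell markers, all were above 0.1 FPKM and averaged at least 1 FPKM over the 5 libraries. In Cal27-shGRK2 alone some had means under 1 FPKM, such as KRT14 at 0.197 and DSG3 at 0.769. Their summed FPKM was 4280 to 4629 in the Cal27 libraries and 1987 to 2044 in the Cal27-shGRK2 libraries.

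A keratin filament is built from an acidic type I chain and a basic type II chain, and each epithelium uses its own combination. Basal cells of stratified epithelia make KRT14 and KRT15 with KRT5. The cells above them make KRT13 with KRT4 in the lining mucosa of the mouth and oesophagus, and KRT10 with KRT1 in cornifying epidermis. KRT16 and KRT17 are induced with the KRT6 chains in wounded, hyperproliferative and cancerous squamous epithelium, and KRT19 belongs to simple epithelia and some mucosal basal cells.

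The genes all lie on the minus strand of chromosome 17, over 806726 bases (GENCODE version 29, hg38). KRT10 lies at one end, at chr17:40818117-40822595. The others with values form a tight group: KRT13 at chr17:41500981-41505705, KRT15 at chr17:41513743-41522529, KRT19 at chr17:41523617-41528308, KRT14 at chr17:41582279-41586921, KRT16 at chr17:41609778-41615899 and KRT17 at chr17:41619441-41624842. KRT16 and KRT17 are separated by 3541 bases, and KRT15 and KRT19 by 1087 bases.

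KRT14, KRT16 and KRT17 are the closest in sequence, which bears on their values, because a fragment from a stretch they share cannot be placed from its sequence alone. Over their aligned coding bases, KRT14 and KRT16 are 88.5% identical, KRT14 and KRT17 84.8%, and KRT16 and KRT17 79.2%. KRT13 and KRT15 are 82.3% identical, and every remaining pair is less alike than KRT16 and KRT17. The longest run shared by KRT14 and KRT16 is 158 bases, and 12.8% of all 50-base windows of the KRT14 coding sequence occur unchanged in KRT16. KRT14 shares only 1.02% of its windows with KRT17. The coding stretch of 120 bases in which the 3 genes are most alike is shown from GENCODE version 29 transcripts, 5′ to 3′ along the coding strand, with the 7 positions at which they differ in capitals. KRT14 and KRT16 do not differ in it, and KRT17 differs from both at all 7. It lies at chr17:41586375-41586494 in KRT14, chr17:41612223-41612342 in KRT16 and chr17:41624143-41624262 in KRT17, all on the minus strand of hg38.
KRT14: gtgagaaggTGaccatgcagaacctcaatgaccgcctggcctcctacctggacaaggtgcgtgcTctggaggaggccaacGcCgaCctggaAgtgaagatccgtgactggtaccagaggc
KRT16: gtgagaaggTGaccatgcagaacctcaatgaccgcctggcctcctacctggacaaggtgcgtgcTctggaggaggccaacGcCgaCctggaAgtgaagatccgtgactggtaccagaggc
KRT17: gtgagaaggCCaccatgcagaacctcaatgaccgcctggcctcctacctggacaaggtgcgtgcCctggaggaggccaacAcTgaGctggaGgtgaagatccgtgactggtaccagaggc

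The ends of the coding sequences tell the 3 genes apart. The last 60 coding bases are shown with the stop codon in capitals. Compared position by position, KRT16 differs from KRT14 at 40 of them and KRT17 at 16. They lie at chr17:41582435-41582494, chr17:41609935-41609994 and chr17:41619594-41619653, on the minus strand.
KRT14: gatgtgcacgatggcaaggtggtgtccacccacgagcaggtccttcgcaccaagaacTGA
KRT16: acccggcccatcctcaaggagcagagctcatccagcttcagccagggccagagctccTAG
KRT17: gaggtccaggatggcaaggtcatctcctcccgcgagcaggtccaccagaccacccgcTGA

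The series is titled for GRK2 and the epithelial phenotype of these tumours, and the comparison asks how the type I keratin set differed with the hairpin. Basal, mucosal and stress keratins fell by very different amounts, from 2.39-fold for KRT15 to 154-fold for KRT13, while KRT10 and KRT19 did not pass or were too low to test. Of the 7 genes, 6 averaged 1 FPKM or more across the 5 libraries and were tested. KRT13, KRT14, KRT15, KRT16 and KRT17 fell, none rose and KRT10 missed the threshold, the median of the 6 being -2.31 on the log2 scale. As background, limma called 29.6% of all 13377 genes at an adjusted p of 0.05, with 15.0% called higher and 14.6% called lower, and their median was -0.01. The 5 type I keratins that fell all had a log2 fold change below -1. Of all genes tested, 1.31% passed the test with a log2 fold change of -1 or below. When the FPKM of a library were rescaled to the same total in all 5, the genes passing over the whole table split into 2850 higher and 1512 lower, against 2008 and 1949 as deposited. Each keratin that fell also passed under that scaling. In bulk libraries, fewer cells of a type and less RNA per cell cannot be told apart.

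**Figure D1:**
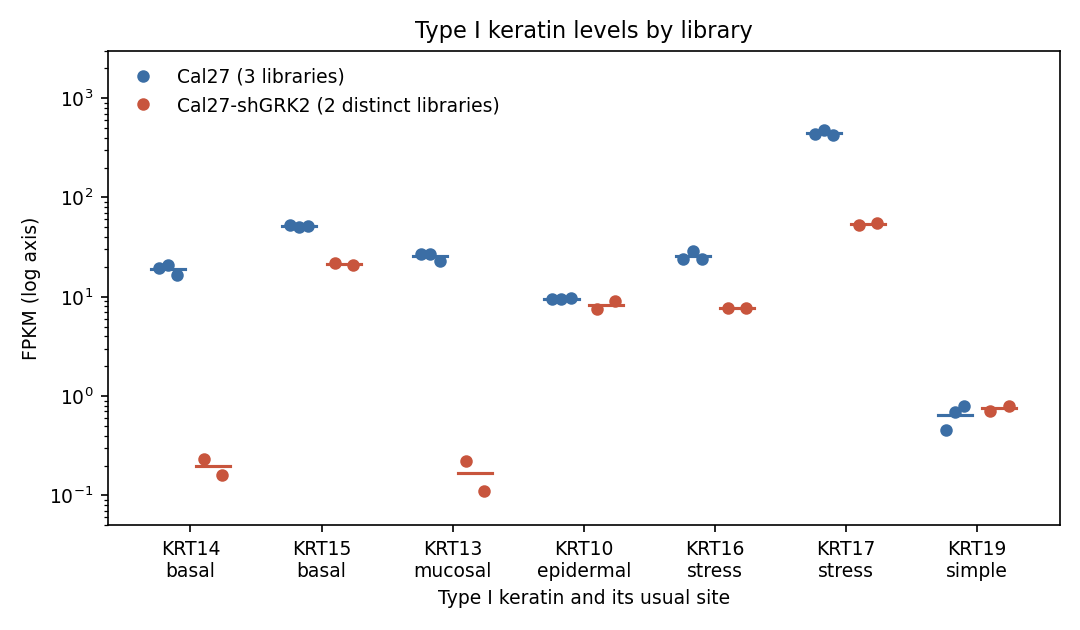
FPKM of each type I keratin (log axis) in the 3 Cal27 libraries and the 2 distinct Cal27-shGRK2 libraries; points are libraries and short lines are group means. KRT13 and KRT14 drop from 16.5 FPKM or more to 0.235 FPKM or less, and KRT17 stays the highest in both groups. Only KRT19 overlaps between groups, but 53.3% of all genes tested did not overlap. KRT10 did not overlap either and still did not pass the test.

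KRT14 is the partner of KRT5 in the basal layer. In Cal27 it was at 19.3, 20.9 and 16.5 FPKM, and in Cal27-shGRK2 at 0.235 and 0.160 FPKM. Both Cal27-shGRK2 libraries lay far below every Cal27 library, so that the mean was 1.04% of that in Cal27. This is a log2 fold change of -4.05 ± 0.10 (SE over 3 and 2 libraries, limma adjusted p = 3.4e-13), rank 6 from the most lowered of 13377 genes. On this scale of log2(FPKM + 1) the change of a gene that ends near 0 is understated. With a pseudocount of 0.1 in place of 1 the value was -6.00. The FPKM left for KRT14 in Cal27-shGRK2 is small beside the 7.78 FPKM of KRT16, with which it shares the stretches described above, so that how much of it belongs to KRT14 is uncertain.

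KRT15, the other basal type I keratin, is linked to quiescent basal and hair follicle stem cells. It was at 52.4, 50.6 and 51.3 FPKM in Cal27 and at 21.9 and 21.1 FPKM in Cal27-shGRK2. The groups were well separated and the libraries within each differed little. The log2 fold change was -1.22 ± 0.06 (SE, limma adjusted p = 9.7e-10). KRT15 stood at 2.75 ± 0.346 (SD, n = 3) times the FPKM of KRT14 in Cal27 and at 93.2 and 132 times in the 2 Cal27-shGRK2 libraries. Of the basal type I transcripts, KRT15 was thus nearly all that remained in Cal27-shGRK2.

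KRT13 is the type I keratin of the lining mucosa of the mouth. Its FPKM was 27.2, 27.0 and 22.7 in Cal27 and 0.223 and 0.110 in Cal27-shGRK2. By group means no other type I keratin fell as far: the mean was 0.649% of that in Cal27. The log2 fold change was -4.51 ± 0.09 (SE, limma adjusted p = 1.7e-13), rank 2 from the most lowered of all genes tested. A pseudocount of 0.1 gave -6.62. In Cal27-shGRK2 the libraries of KRT13 and KRT14 overlapped at low values, so the order of these genes there is uncertain. An antisense gene, ENSG00000229732.1 (listed as AC019349.5), lies over the 3′ part of KRT13 on the plus strand at chr17:41500983-41502409. It was at 10.1, 10.5 and 9.53 FPKM in Cal27 and at 0.125 and 0.197 FPKM in Cal27-shGRK2, a log2 fold change of -3.25 ± 0.09 (SE, limma adjusted p = 1.2e-12). The libraries were made with a stranded kit, but the sources used here do not say whether counting used the strand. Without that, reads from KRT13 and from its antisense partner cannot be told apart, and the share of the one in the values of the other was not tested.

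KRT10, the suprabasal keratin of cornifying epidermis, is the one tested gene of the set that did not pass. The Cal27 libraries had 9.46, 9.39 and 9.73 FPKM and the Cal27-shGRK2 libraries 7.47 and 9.14 FPKM. The groups did not overlap, which held for 53.3% of all genes tested, but the 2 Cal27-shGRK2 libraries differed from each other more than the closer of them did from Cal27. The log2 fold change was -0.18 ± 0.09 (SE, limma adjusted p = 0.13). Without Cal27-shGRK2 replicate 2 it was -0.31 and passed (adjusted p = 0.039), and without the duplicated library it was -0.05 (adjusted p = 0.75). KRT10 overlaps TMEM99 on the opposite strand by 3490 bases. TMEM99 stood at 15.5 ± 0.799 FPKM (SD, n = 3) in Cal27 and 15.6 ± 0.277 FPKM (SD, n = 2) in Cal27-shGRK2, and did not pass (log2 fold change 0.01, adjusted p = 0.95). The sign of that change turned with quantile normalization. The type II partner of KRT10, KRT1, lay under the filter, with the authors' condition values at 0.215 FPKM in Cal27 and 0.00892 FPKM in Cal27-shGRK2 in the authors' deposited table.

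KRT17, a keratin of activated keratinocytes and of basal cells in glands and hair follicles, was the most abundant type I keratin in both groups. Its FPKM was 434, 479 and 423 in Cal27 and 52.3 and 55.3 in Cal27-shGRK2. The lowest Cal27 library held several times the level of either Cal27-shGRK2 library, and the means differed 8.28-fold. The log2 fold change was -3.03 ± 0.07 (SE, limma adjusted p = 1.7e-13), rank 15 from the most lowered. KRT16, its neighbour, marks hyperproliferative suprabasal cells. It was at 24.2, 28.9 and 23.8 FPKM in Cal27 and at 7.78 FPKM in both distinct Cal27-shGRK2 libraries. It fell by 1.60 on the log2 scale (SE 0.08, limma adjusted p = 1.5e-09), a smaller change than that of KRT17. KRT16 stood at 0.0558, 0.0603 and 0.0562 of the KRT17 level in Cal27, against 0.149 and 0.141 of it in Cal27-shGRK2. The 2 stress keratins therefore did not fall in proportion. This ratio was not tested.

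KRT19 lacks most of the tail domain that other keratins carry. It was at 0.458, 0.697 and 0.796 FPKM in Cal27 and at 0.709 and 0.801 FPKM in Cal27-shGRK2, below the filter. The groups overlapped. In a fit with no filter KRT19 had a value of 0.09 ± 0.11 on the log2 scale (SE, limma adjusted p = 0.60). Of 21 other type I keratin names, KRT9 and KRT34 had rows, both under 0.4 FPKM in every library. KRT9, a keratin of palm and sole epidermis, had means of 0.158 FPKM in Cal27 and 0.0248 FPKM in Cal27-shGRK2.

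The order of levels differed between the groups. In Cal27 the order was KRT17, KRT15, KRT13, KRT16, KRT14, KRT10 and KRT19, and of neighbours in this order only KRT13 and KRT16, both with a mean of 25.6 FPKM, overlapped in their libraries. In Cal27-shGRK2 it was KRT17, KRT15, KRT10, KRT16, KRT19, KRT14 and KRT13, where KRT10 overlapped KRT16, and KRT14 overlapped KRT13. KRT13 thus stood level with KRT16 in Cal27 and level with KRT14, below KRT19, in Cal27-shGRK2.

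Summed over the 9 type I keratin rows of the table, the total was 568, 617 and 549 FPKM in Cal27. In Cal27-shGRK2 it was 90.8 and 94.8 FPKM, 6.23-fold lower on average. The sum leaves out KRT18. KRT17 made up 77.1% ± 0.594 (SD, n = 3) of it in Cal27 and 58.0% ± 0.528 (SD, n = 2) in Cal27-shGRK2. Without KRT17 the sum was 3.39-fold lower. KRT15 held 8.93% ± 0.634 of the sum in Cal27 and 23.2% ± 1.26 in Cal27-shGRK2, though its own level fell. The share of KRT10 went from 1.65% ± 0.126 to 8.23% and 9.65% in the 2 Cal27-shGRK2 libraries, and that of KRT16 from 4.43% ± 0.222 to 8.39% ± 0.256. KRT13 and KRT14 went from 4.44% ± 0.327 and 3.26% ± 0.226 to 0.181% ± 0.0918 and 0.213% ± 0.0637. These shares are a description, with no test.

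**Figure D2:**
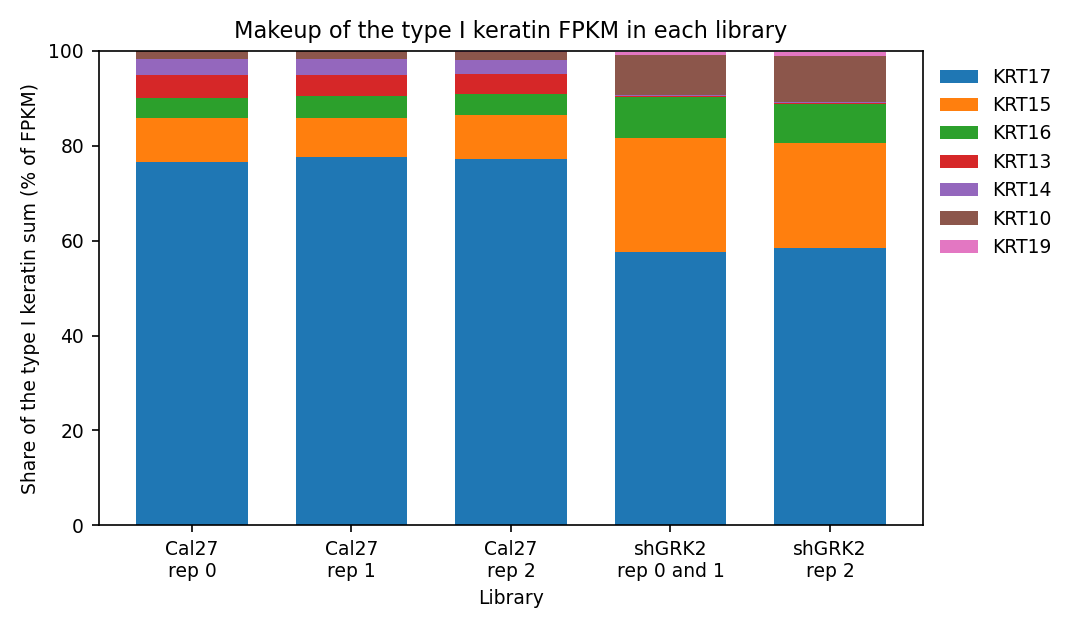
Share of the type I keratin FPKM taken by each gene in each of the 5 distinct libraries, in percent; KRT9 and KRT34 are too low to see and are not drawn. KRT17 takes 76.5% to 77.7% in Cal27 and 57.6% to 58.4% in Cal27-shGRK2, and the bands of KRT13 and KRT14 almost vanish.

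The type II keratins, the partner chains, moved in both directions. Of 26 names, 10 had rows and 9 were tested. There were 4 that rose and 4 that fell, KRT78 did not pass, and the median was -0.25 on the log2 scale. Of all genes tested, 15.0% were called higher and 14.6% lower. KRT5, the basal partner and the most abundant keratin in the table, was at 2167, 2322 and 2073 FPKM in Cal27 against 740 and 773 FPKM with the hairpin (log2 fold change -1.53). KRT4, the mucosal partner of KRT13, went from 5.19 ± 0.189 to 0.00831 ± 0.00124 FPKM (log2 fold change -2.62). By FPKM means KRT4 was 625-fold lower, which the log2(FPKM + 1) scale understates, though a ratio so near 0 is uncertain. Both members of the mucosal combination were thus close to 0 in Cal27-shGRK2. The KRT6 chains that pair with KRT16 and KRT17 were lower too. KRT6A had 110, 127 and 104 FPKM in Cal27 against 6.03 and 15.4 FPKM with the hairpin, a log2 fold change of -3.42 ± 0.46 (SE, limma adjusted p = 0.019). KRT6A no longer passed when Cal27 replicate 0, 1 or 2 was left out, at an adjusted p of 0.082, 0.076 and 0.083. KRT6B went from 1.82 ± 0.273 to 0.201 ± 0.00537 FPKM, 9.06-fold lower against 10.6-fold for KRT6A. Its log2 fold change was -1.23, and -2.66 with a pseudocount of 0.1. Because the KRT6 genes are nearly alike, the split of reads between them is uncertain.

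The type II keratins that rose are not the usual partners of the stratified type I keratins. KRT7, of simple and glandular epithelium, had a mean of 45.5 ± 1.90 FPKM (SD, n = 3) in Cal27 and 84.2 ± 3.15 FPKM (SD, n = 2) in Cal27-shGRK2. KRT80 went from 160 ± 12.6 to 258 ± 15.2 FPKM. The hair keratins KRT81 and KRT86 had log2 fold changes of 3.23 and 0.92, and are close copies of each other, so their split is uncertain. KRT78 had a log2 fold change of -0.25 and did not pass (adjusted p = 0.16), but did without Cal27 replicate 2 (adjusted p = 0.040). None of the 6 tested type I keratins was called higher, beside 15.0% of all genes tested. With so few genes this is not read as a trait of the family.

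**Figure D3:**
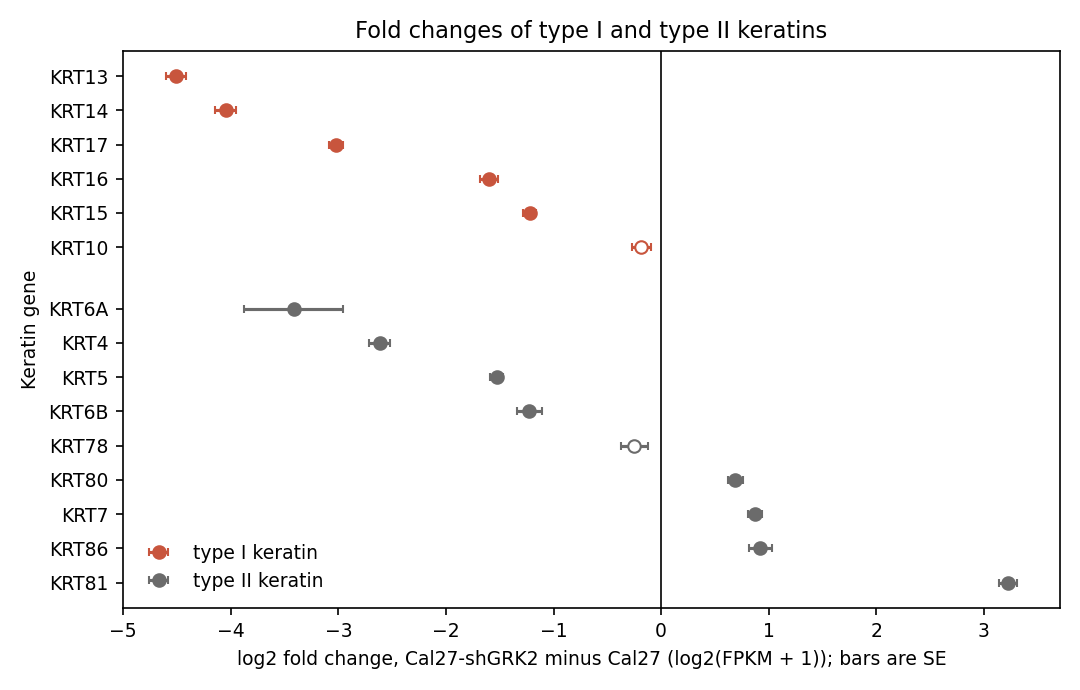
Log2 fold change of Cal27-shGRK2 minus Cal27 on the log2(FPKM + 1) scale for the 6 tested type I and 9 tested type II keratins; bars are SE, filled points passed the test and open points did not. Type I keratins lie below 0, from -4.51 to -0.18, while type II keratins spread from -3.42 to 3.23. The scale understates the change of genes that end near 0, KRT4 (625-fold lower by FPKM means) among them.

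Because type I and type II chains are needed in equal amounts in a filament, their ratios within each library are given as a description. The type I sum over the type II sum was 0.228, 0.230 and 0.230 in Cal27 and 0.0826 and 0.0809 in Cal27-shGRK2. Neither sum holds the KRT8 and KRT18 combination, so this is not the ratio in the whole cell. KRT14 over KRT5 was 0.00892, 0.00898 and 0.00795 in Cal27 and 3.2e-04 and 2.1e-04 in Cal27-shGRK2, so KRT14 dropped well beyond its partner. KRT15 over KRT5 was 0.0242, 0.0218 and 0.0247 in Cal27 and 0.0295 and 0.0273 in Cal27-shGRK2. KRT15 and KRT5 thus fell by similar amounts, with the ratio 1.21 times as high in Cal27-shGRK2. KRT17 over KRT5 was 0.204 ± 0.00299 (SD, n = 3) in Cal27 and 0.0711 ± 5.8e-04 (SD, n = 2) in Cal27-shGRK2.

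Genes beside the cluster were compared to see how far along the chromosome the differences reached. There were 13 tested non-keratin genes flanking it, of which 1 rose, 4 fell and 8 missed the threshold (median -0.07 on the log2 scale). Over all genes tested, 29.6% were called, 15.0% higher and 14.6% lower. HAP1, FKBP10 and TTC25, which also flank the cluster, were under the filter and were not tested. IGFBP4, an insulin-like growth factor binding protein, rose by 0.85 on the log2 scale, and the focal adhesion gene TNS4 had -0.63. SMARCE1, a chromatin remodelling subunit, had a log2 fold change of -0.32. JUP, the junction protein plakoglobin, had -0.24, a call lost without the duplicated library (adjusted p = 0.11), without Cal27-shGRK2 replicate 2 (0.079) and in limma without a trend (0.065). EIF1, a translation initiation factor and the nearest listed gene beyond KRT17, named for its place, had 456 and 444 FPKM as group means and did not pass (log2 fold change -0.04, adjusted p = 0.70). The 5 keratins that fell all lay in the stretch from KRT13 to KRT17, within which KRT19 was low in both groups. KRT10, the only other tested keratin, lay apart. AC019349.5, the antisense gene at KRT13, lies in that stretch and fell too, as given above. No flanking gene compared here lies between TMEM99 and KRT13, so these values cannot show where the differences end on that side.

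**Figure D4:**
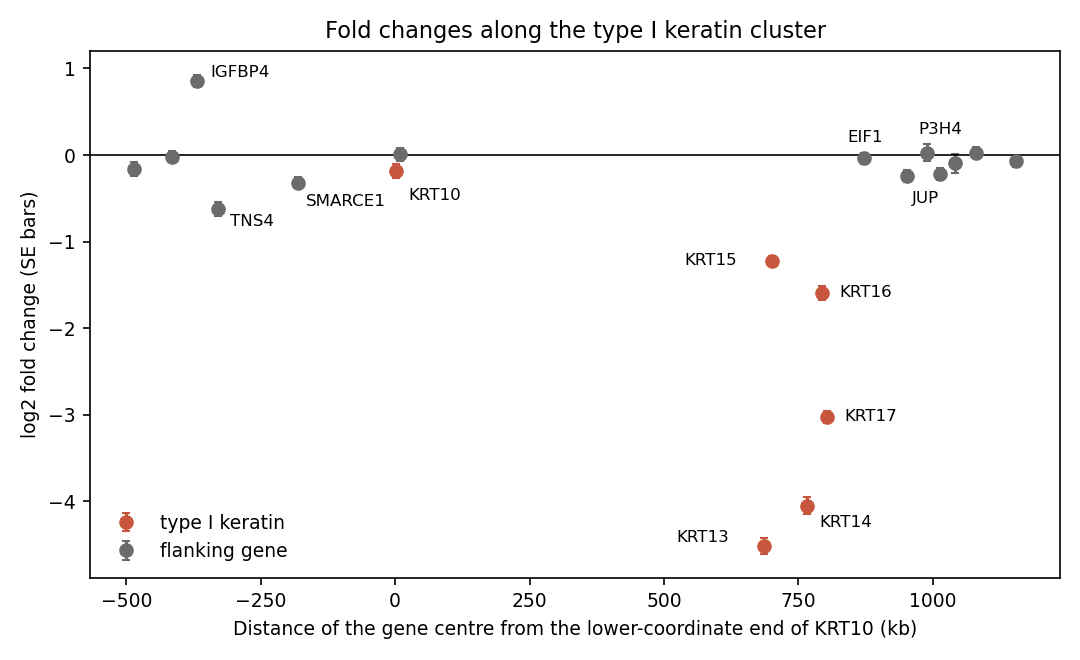
Log2 fold change (SE bars) of the tested type I keratins and flanking genes against the distance of each gene's centre from the lower-coordinate end of KRT10, in kb. The 5 keratins between 685 and 804 kb range from -4.51 to -1.22, while the flanking genes range from -0.63 to 0.85.

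Transcription factors reported to act on keratin genes moved both ways. Among 32 tested, 10 fell, 7 rose and 15 missed the threshold (median -0.05 on the log2 scale). The background over all genes tested was 14.6% called lower and 15.0% called higher. SOX2, a factor of squamous progenitors, went from 6.91 ± 0.573 to 0.103 ± 0.0165 FPKM (log2 fold change -2.84). TP63, which defines the squamous lineage and acts on KRT5 and KRT14, was at 32.0, 32.1 and 31.4 FPKM in Cal27 and at 10.5 FPKM in both distinct Cal27-shGRK2 libraries (log2 fold change -1.51). CEBPA fell by 0.95. GATA3 (1.07), the AP-1 subunit FOSL1 (0.91) and SOX9 (0.84) had positive log2 fold changes and passed.

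Genes that anchor or regulate keratin filaments moved both ways. Among 21 tested, 7 fell, 2 rose and 12 missed the threshold (median -0.06), beside 14.6% called lower and 15.0% called higher over all genes tested. The desmosomal genes PKP1 (-1.36), DSG3 (-0.96) and DSP (-0.63), the last of which ties keratins to desmosomes, fell. On the same list the desmosomal genes PKP2 (-0.10), PKP3 (-0.13) and DSG2 (0.15) did not pass, and JUP fell as given above. The cytolinker PLEC had 0.29, a call lost without the duplicated library (adjusted p = 0.052), without Cal27-shGRK2 replicate 2 (0.12) and in limma without a trend (0.055). PRKCA had 0.44, a call lost without Cal27-shGRK2 replicate 2 (adjusted p = 0.11).

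Markers of cell types were read beside these results. Over all genes tested, 14.6% were called lower and 15.0% higher. Of 14 squamous cell markers, KRT14 among them, 13 fell, with a median of -0.98 over the list. Of 5 tested markers of simple and glandular epithelium, 2 rose (KRT7 and GATA3), 1 fell (AGR2, -1.18) and 2 did not pass (MUC1 and FOXA1), and their summed FPKM was 72.3 to 75.3 in Cal27 and 104 to 109 in Cal27-shGRK2. Of 11 fibroblast markers 5 had rows, with a sum of 5.93 to 6.40 FPKM in Cal27 and 5.54 to 5.80 in Cal27-shGRK2. Both tested, COL1A1 and ACTA2, did not pass. Of 13 blood and endothelial markers 4 had rows, with a sum of 5.50 to 6.35 FPKM in Cal27 and 11.7 to 12.6 in Cal27-shGRK2. CD68 and CDH5 rose (log2 fold change 1.29 and 0.76). The part of other cell types in the keratin results was not tested.

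For each keratin, the 2 genes outside the type I keratins with the closest profile were taken, by the Euclidean distance between log2(FPKM + 1) values centred over the 5 libraries. The profile of KRT13 was nearest to that of SPRR1A, a cornified-envelope precursor (distance 0.33), and then SNORD89 (0.90), which was listed at 0.0001 FPKM in both Cal27-shGRK2 libraries. KRT14 was nearest to the imprinted RNA H19 (0.54) and the alarmin S100A8 (0.57). KRT17 was nearest to the interferon-stimulated gene IFI6 (0.16) and then to AC019349.5, the antisense gene at KRT13 (0.26). KRT15 lay nearest to HCAR2 (0.05) and AGR2 (0.09), KRT16 to FEZ1 (0.09) and RUNX3 (0.10), and KRT10 to ZNF136 (0.02) and C8orf76 (0.04). With a pseudocount of 1 added, these distances do not match fold changes in FPKM where a gene is low. AC019349.5 was 62.4-fold lower in Cal27-shGRK2 against 8.28-fold for KRT17, and FEZ1 and RUNX3 were 7.28-fold and 8.70-fold lower against 3.30-fold for KRT16.

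The authors' deposited table was set beside these values. It lists log2 fold changes of -7.00 for KRT13, -6.81 for KRT14, -3.05 for KRT17, -1.67 for KRT16 and -1.23 for KRT15, each with q = 6.1e-04, and -0.21 for KRT10 (q = 0.27) and 0.21 for KRT19 (q = 0.74). These are ratios without a pseudocount. In the authors' deposited table the Cal27 condition value equals the mean of the 3 columns in 99.8% of genes with a condition mean of at least 1 FPKM, but that of Cal27-shGRK2 does so in 0.329%. If the latter is the mean of 3 libraries, the authors' deposited table implies a further Cal27-shGRK2 value of 0.110 FPKM for KRT14, 0.268 for KRT13, 53.5 for KRT17, 8.64 for KRT16, 22.6 for KRT15, 8.08 for KRT10 and 0.742 for KRT19. The same computation gave a value below 0 for 152 genes of the table, which no library can have, so the implied values are uncertain. For every one of these keratins but KRT10 and KRT19 the implied value lies below all 3 Cal27 libraries by a wide margin, as the 2 distinct libraries do. With it as an additional library, an alternative chosen after seeing the data, KRT10 passed narrowly (log2 fold change -0.19, limma adjusted p = 0.0499).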

How the data were processed

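The deposited table holds FPKM per library and per condition, and the authors' log2 fold changes, test statistics (a score), p-values and q-values, per the file headers. The tools named per the submitters' processing notes are TopHat2 (version 2.1.0), Bowtie2 (2.2.6) and Cuffdiff (2.2.1), with the build hg38. The annotation and strand setting are not given in the sources used here. Estimated abundances let genes that overlap or share sequence exchange signal. Low values showed no common step of 1 read (at most 3.09% of low genes in 1 bin of log2 ratios), so depth remained unknown and counting intervals were not computed.

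Identical libraries were counted once. On log2(FPKM + 1) values, limma 3.58.1 in R 4.3.3 (trended, robust, 3 residual degrees of freedom, two-sided) compared the groups for the 13377 genes averaging 1 FPKM or more across 5 libraries. Adjustment was by Benjamini-Hochberg over these genes, with a threshold of 0.05. Small p-values rest on variances pooled over genes. On simulated data with 200 changed genes, 92.5%, 99.0% and 98.3% of log2 changes of 0.5, 1 and 2 were recovered, with 8.61% false calls among all calls. That false share is above the threshold of 0.05. Only 200 of 13377 genes were changed there, against 29.6% called in these data, so the rates may not carry over. Genes named were the 8 keratins, GRK2, every tested type II keratin, up to 3 called members per direction of each other list, members of lists with at most 10 tested genes, and the nearest profiles. Other genes named were taken for their place on the chromosome or, for PKP2, PKP3 and DSG2, as further desmosomal genes of the same list. The value of 1 marker gene is not reported here. The members and lists were chosen with earlier results of these data known. Coding sequences came from GENCODE version 29 transcripts, aligned with Biopython 1.88.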

Additional observations from a re-analysis of the deposited data

How the results depend on the processing

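KRT13, KRT14, KRT15, KRT16, KRT17 and GRK2 kept their direction and stayed past the threshold in all 15 alternatives: another pseudocount, filters of none and 5 FPKM, 3 scalings, limma without trend, a replicate block in 2 assignments, leaving out each library, and the added library. Their log2 fold changes ranged from -6.62 to -4.44 for KRT13, -6.00 to -3.98 for KRT14, -3.07 to -2.97 for KRT17, -1.70 to -1.51 for KRT16 and -1.26 to -1.18 for KRT15. KRT10 did not pass, but did without Cal27-shGRK2 replicate 2 (-0.31) and with the added library (-0.19), and ranged from -0.31 to -0.0535 when 1 library was left out. The count of genes passing ranged from 2600 to 4019 when 1 library was left out, with 1246 to 2184 higher and 1066 to 1835 lower, the lowest totals and counts lower coming without the duplicated Cal27-shGRK2 library and the lowest count higher without replicate 2. The log2 fold change of TMEM99 was -0.0076 with quantile normalization and between -0.0331 and 0.0291 when 1 library was left out, against 0.0079; the cause was not tested. Of 44 other named genes that were checked, 36 kept their direction and their side of the threshold throughout, and TMEM99 changed only in sign. The replicate numbers share no stated culture. Deviations of same-numbered libraries correlated at 0.080 for number 0, or -0.071 if the duplicated library is number 1, and at 0.017 for number 2. With 2 distinct Cal27-shGRK2 libraries, their deviations mirror each other, so these values cannot decide whether libraries were paired. With the replicate block, which leaves 1 residual degree of freedom, 3960 genes passed with the shared library taken as replicate 0 and 3481 with it as replicate 1, against 3957, and KRT6A was lost (adjusted p = 0.19 and 0.30). The sum over type I keratins and the share of KRT17 moved by less than the spread between libraries. Unknown depth limits what can be said of KRT13 and KRT14 in Cal27-shGRK2 and of KRT19.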
